A study of Mus musculus with 2 samples.

Results

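Newborn mouse heart was profiled by DNase-seq, which maps open chromatin as sites where the enzyme DNase I cuts the genome, and the 8 genes of the MEF2 transcription factors and the class IIa histone deacetylases are described here. The members were Mef2a, Mef2b, Mef2c and Mef2d, and Hdac4, Hdac5, Hdac7 and Hdac9, which are 8 of 21938 protein-coding genes with a symbol in GENCODE vM21 on mm10. For each gene, peaks and hotspots were taken within 500 bp of any transcription start site (TSS), in the gene body and within 50 kb of it, and TSSs more than 500 bp apart were listed apart as clusters. The study had 1 group of 2 libraries, both of heart tissue of strain B6NCrl at postnatal day 0. The labels named no treatment or engineered allele. The libraries had separate biosamples but the same donor label, and sex was not collected, so the spread between them may be technical. No comparison between conditions was possible, and no test was run.

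MEF2 proteins are MADS-box transcription factors that bind an A/T-rich element, the MEF2 box, in many genes of heart and skeletal muscle. Class IIa histone deacetylases bind MEF2 on DNA and repress its targets, and they leave the nucleus once kinases such as CaMK and protein kinase D have phosphorylated them and 14-3-3 proteins have bound. In the heart the balance between both families is known for its part in development and in stress-dependent growth.

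Each deposited peak was 150 bp long and carried the authors' whole-number signal value, which reached 145 in replicate 1 and 148 in replicate 2. Over all peaks the median value was 36 in replicate 1 and 35 in replicate 2. A hotspot is a broader region called open, with the authors' -log10 q-value, for which 100 was the highest value written. Heart tissue mixes cell types. The share of cells with an open site and the degree of opening per cell therefore cannot be told apart from a peak value.

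The sequences that carry the family's own element are shown first. A match to the MEF2 box lay in a promoter peak of both libraries at 3 of the 8 genes, Mef2a, Hdac5 and Hdac9, against 0.542% of protein-coding genes (119 of 21938). That background includes genes without a promoter peak and was not matched for number of TSSs. By that number Hdac5 ranked at 99.3% of protein-coding genes, and Mef2a and Hdac9 at 82.2%. The box peaks of these 3 genes were read from mm10 (GRCm38.p6) 5' to 3' on the strand of the gene. They are 150 bp long with the coordinates of replicate 1, and capitals mark the MEF2 box. The Mef2a peak at the gene's 5' end is chr7:67372836-67372985, minus strand. The Hdac5 peaks are chr11:102230136-102230285 at the 5' end of the gene and chr11:102218876-102219025 at a start site 11.2 kb inside it, both minus strand. The Hdac9 peaks are chr12:34907016-34907165 at a noncoding start site 10.1 kb inside the gene and chr12:34527836-34527985 beside the coding start sites, both minus strand.
Mef2a 5' promoter: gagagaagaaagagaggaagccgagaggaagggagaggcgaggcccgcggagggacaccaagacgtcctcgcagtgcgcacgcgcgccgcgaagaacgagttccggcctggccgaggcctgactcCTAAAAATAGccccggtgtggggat
Hdac5 5' promoter: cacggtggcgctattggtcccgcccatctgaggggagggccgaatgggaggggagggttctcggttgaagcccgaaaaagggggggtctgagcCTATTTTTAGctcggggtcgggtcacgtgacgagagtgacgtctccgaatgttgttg
Hdac5 internal promoter: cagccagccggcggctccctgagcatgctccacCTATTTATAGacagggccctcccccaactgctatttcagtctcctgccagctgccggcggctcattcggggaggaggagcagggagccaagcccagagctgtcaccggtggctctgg
Hdac9 noncoding start: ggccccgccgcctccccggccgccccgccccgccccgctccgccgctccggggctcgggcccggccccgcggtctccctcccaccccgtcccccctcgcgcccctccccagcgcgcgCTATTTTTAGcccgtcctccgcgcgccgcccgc
Hdac9 coding start: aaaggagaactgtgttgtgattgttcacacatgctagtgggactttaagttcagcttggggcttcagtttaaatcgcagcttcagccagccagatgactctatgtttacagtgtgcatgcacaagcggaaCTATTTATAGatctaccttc

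These 5 promoter peaks placed the box close to a start site in 4 cases. Measured along the gene, the box lay at 3 bp from the nearest TSS of Mef2a, at -21 bp at the 5' end of Hdac5, at -58 bp at its internal start and at -64 bp at the noncoding start of Hdac9. At the coding start of Hdac9 the box lay at 454 bp, past the TSS. The noncoding start of Hdac9 was the richest in G and C, with 128 of 150 bases, against 65 in the peak at the coding start.

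Outside promoters, a MEF2 box lay in 10 distal peaks that overlapped between libraries, where distal means a centre more than 1000 bp from every annotated TSS. For each gene that had such a peak with its own TSS as the nearest coding one, the peak with the highest mean value is shown. The windows are 60 bases centred on the box, on the strand of the gene, with every MEF2 box in capitals. They are chr13:83603972-83604031 (plus strand, Mef2c intron), chr3:88140768-88140827 (plus strand, upstream of Mef2d), chr11:102207958-102208017 (minus strand, Hdac5 intron), chr15:97812326-97812385 (minus strand, Hdac7 intron) and chr12:34792276-34792335 (minus strand, Hdac9 intron).
Mef2c intron, 100 kb: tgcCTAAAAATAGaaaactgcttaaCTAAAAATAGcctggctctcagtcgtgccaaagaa
Mef2d upstream, -1.59 kb: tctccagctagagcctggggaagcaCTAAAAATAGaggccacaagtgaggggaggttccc
Hdac5 intron, 22.2 kb: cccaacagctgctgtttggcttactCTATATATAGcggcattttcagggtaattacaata
Hdac7 intron, 32.2 kb: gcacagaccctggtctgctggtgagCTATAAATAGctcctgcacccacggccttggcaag
Hdac9 intron, 124.8 kb: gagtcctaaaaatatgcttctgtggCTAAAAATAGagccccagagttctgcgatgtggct

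The Mef2c window held 2 boxes whose starts lay 22 bp apart, and the 5' one began just outside the called peak. A match to the letters is a description and does not show that a MEF2 protein was bound there. The CArG box is the related element of serum response factor. By its letters it cannot overlap a MEF2 box, so the absence of such overlaps in the 15 box peaks was fixed in advance.

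Each of the 8 genes had a peak at a promoter in both libraries, where 63.7% of protein-coding genes had one and 74.9% of those with 2 or more TSS clusters did. The strongest promoter peaks lay at Hdac4, Hdac5, Mef2b, Mef2d and Mef2a, and those of Hdac9, Hdac7 and Mef2c were lower. That of Mef2b lies within 500 bp of TSSs of Borcs8 and Rfxank and cannot be assigned to it. The median of the highest promoter value over the 8 genes was 112 in replicate 1 and 106 in replicate 2. Over all protein-coding genes with a promoter peak, the medians were 88 in replicate 1 and 84 in replicate 2. The highest value is taken over all TSSs of a gene, so a gene with more TSSs has more chance of a high one. The comparison was not matched for number of TSSs, and the medians of the 8 genes include the unassigned peak of Mef2b.

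The annotation gave the 8 genes 47 TSS clusters, of which 18 had a peak in both libraries, 5 in one library and 24 in neither. That share of 38.3% lay near the background of 34.2% of all protein-coding TSS clusters. Of the 8 first clusters, counted from the 5' end, 5 had a peak in both libraries, where the background was 58.1%. Of the 39 later clusters 13 had one, a share of 33.3%, where the background was 17.1%. The MEF2 genes had 9 of 20 clusters with a shared peak and the deacetylase genes had 9 of 27.

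**Figure D1:**
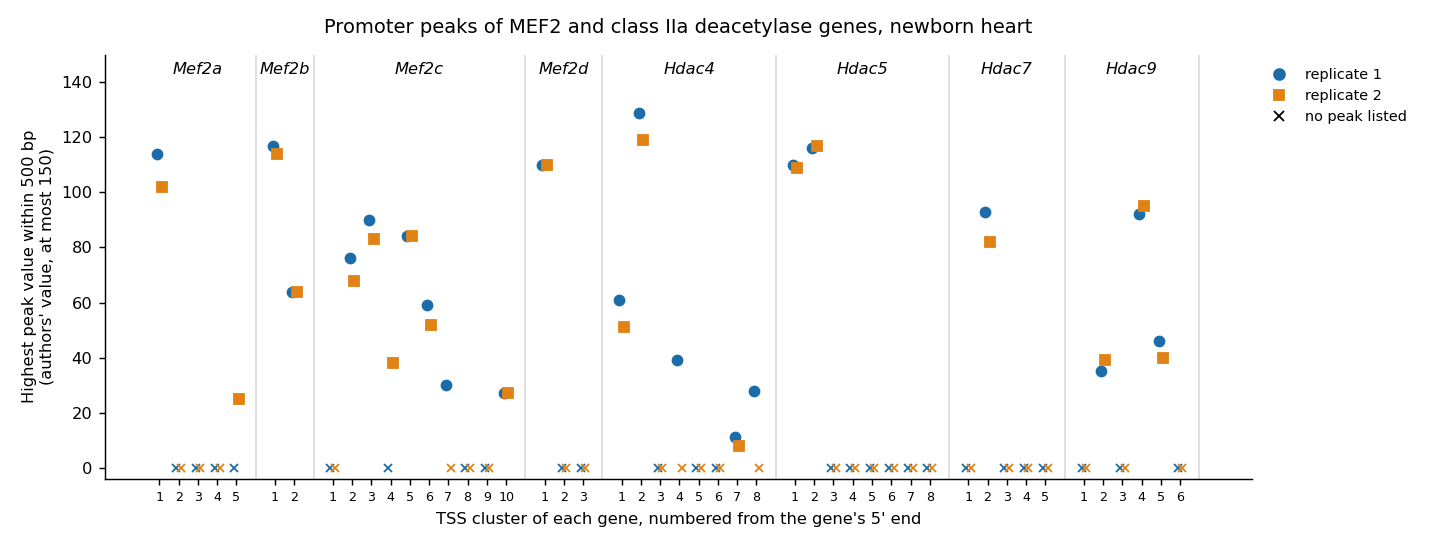
The highest authors' peak value within 500 bp of each TSS cluster (vertical axis) is plotted for the 47 clusters of the 8 genes, numbered from each gene's 5' end (horizontal axis), with circles for replicate 1, squares for replicate 2 and crosses at 0 where no peak was listed. The first clusters of Mef2c, Hdac7 and Hdac9 had no peak in either library, and the highest pair was at the second cluster of Hdac4, at 129 and 119.

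Mef2a, which is needed for the function of the heart after birth in mice, lies at chr7:67231163-67372858 on the minus strand. Its first TSS cluster had a highest promoter value of 114 in replicate 1 and 102 in replicate 2, a mean of 108 ± 8.49 (SD, n = 2). That peak was centred at -373 bp from the TSS, and the peak with the MEF2 box beside it had values of 96 and 87. Mef2a thus had its open promoter at the start shared by most of its transcripts, 7 of 12, and 3 of its other 4 clusters had no peak in either library. The remaining cluster, 106.7 kb inside the gene, had a peak of value 25 in replicate 2 only.

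Mef2b, the least studied member in muscle and best known from B cells, lies at chr8:70139711-70167488 on the plus strand. The peak at its first TSS had values of 117 in replicate 1 and 114 in replicate 2. TSSs of Borcs8 and Rfxank lie within 500 bp of that peak, so it cannot be assigned to Mef2b. The second cluster, 13.1 kb inside the gene, is shared with no other gene and starts 4 of the 5 transcripts. Its peak had a value of 64 in both libraries, which ranked at 59.1% among promoter peaks of replicate 1.

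Mef2c, which is required for the looping and the right ventricle of the embryonic mouse heart, lies at chr13:83504034-83667080 on the plus strand and has 27 annotated TSSs in 10 clusters. The first cluster, with 6 coding transcripts, had no peak in either library. Openness instead lay at internal starts, and 5 clusters had a peak in both libraries. The cluster 20.3 kb inside the gene, with 10 TSSs, had values of 90 in replicate 1 and 83 in replicate 2. At 68.3 kb inside the gene the value was 84 in both libraries, although CpG observed over expected there was 0.305, in a decile in which 15.9% of TSS clusters had a peak in both libraries.

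The other shared promoter peaks of Mef2c were lower. Its cluster at 19.4 kb had values of 76 in replicate 1 and 68 in replicate 2, and lies beside the 20.3 kb cluster. The cluster at 69.6 kb had 59 in replicate 1 and 52 in replicate 2. At 148.9 kb, near the 3' end, the value was 27 in both. Single-library peaks were listed at 26.1 kb, with 38 in replicate 2, and at 71.1 kb, with 30 in replicate 1. The highest promoter peak of Mef2c was at the 20.3 kb cluster in replicate 1 and at the 68.3 kb cluster in replicate 2, so the order of these starts differed between libraries.

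Mef2d, a mediator of stress-dependent gene expression in the adult mouse heart, lies at chr3:88142372-88172086 on the plus strand. Its first cluster, which starts 5 of its 7 transcripts, had a value of 110 in both libraries. Its other 2 clusters had no peak in either library. Mef2d thus had a single open start, with no difference in value between libraries.

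Hdac4, known in mice for restraining the growth of cartilage cells, lies at chr1:91928779-92195699 on the minus strand and had the highest promoter peak of the 8 genes. That peak, 15.4 kb inside the gene at the start of 2 coding transcripts, had values of 129 in replicate 1 and 119 in replicate 2, a mean of 124 ± 7.07 (SD, n = 2). Among genes with a promoter peak it ranked at 98.9% in replicate 1 and 96.1% in replicate 2. The hotspot around it was the widest of the 8 loci, spanning 1621 bp in replicate 1 and, in replicate 2, 1371 bp, and the widest ones of the other 7 loci ranged from 674 to 1147 bp. Its CpG observed over expected was 0.997, in the highest decile, in which 93.9% of TSS clusters had a peak in both libraries.

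The 5' start of Hdac4 begins 2 noncoding transcripts and was weaker. Its values were 61 in replicate 1 and 51 in replicate 2. Near the 3' end, at 220.2 kb, a start with a TSS of Gm37048 within 500 bp had a peak of 11 in replicate 1 and 8 in replicate 2. Single peaks of 39 at 82.4 kb and 28 at 260.8 kb were listed in replicate 1 only.

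Hdac5, whose loss makes mouse hearts grow excessively under stress, lies at chr11:102194432-102230166 on the minus strand and had a pair of strong promoters. The internal one, 11.2 kb inside the gene, had values of 116 in replicate 1 and 117 in replicate 2. The 5' promoter had 110 in replicate 1 and 109 in replicate 2, with a TSS of Mir8101 within 500 bp. Both hold the MEF2 boxes printed above. They differed in CpG content, with observed over expected of 0.302 at the internal start and 0.859 at the 5' end. The other 6 clusters of Hdac5, all in its 3' part, had no peak in either library.

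Hdac7, known for keeping the walls of embryonic blood vessels intact in mice, lies at chr15:97792664-97844502 on the minus strand. Its first cluster starts 4 coding transcripts and had no peak in either library. The cluster 12.7 kb inside the gene was the open one, with values of 93 in replicate 1 and 82 in replicate 2. No other cluster of Hdac7 had a peak.

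Hdac9, also called HDRP or MITR in its short form and itself described as a MEF2 target, is the longest of the 8 genes, at chr12:34047580-34917095 on the minus strand. Its first TSS had no peak in either library. The highest promoter value lay 388.2 kb inside the gene, at a coding start, with 92 in replicate 1 and 95 in replicate 2. CpG observed over expected there was 0.159, in a decile in which 6.75% of TSS clusters had a peak in both libraries. A second coding cluster beside it, at 388.8 kb, starts 5 transcripts. Its own peak, which holds the MEF2 box printed above, had 46 in replicate 1 and 32 in replicate 2. A peak of 34 in replicate 1 and 40 in replicate 2 lay within 500 bp of both coding clusters. The CpG-rich noncoding start at 10.1 kb, with 0.871, had values of only 35 in replicate 1 and 39 in replicate 2.

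Ordered by the mean of both libraries, neighbouring genes often overlapped. Hdac5 and Mef2b, Mef2d and Mef2a, Hdac9 and Hdac7, and Hdac7 and Mef2c had overlapping ranges over the 2 libraries. The values of Hdac4 stood above those of Hdac5 in both libraries, those of Mef2b above those of Mef2d, and those of Mef2a above those of Hdac9. The place of Mef2b rests on the peak that cannot be assigned to it. Its second cluster, shared with no other gene, had 64 in both libraries, below the highest promoter value of every other member.

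Beyond promoters, all 8 genes had many distal peaks. The number per gene with its 50 kb flanks had a median of 26 over the 8 genes in replicate 1 and 20.5 in replicate 2, where all protein-coding genes had medians of 7 in replicate 1 and 6 in replicate 2. Since long genes span more sequence, density is the fairer measure. It had a median of 10.3 per 100 kb over the 8 genes in replicate 1 and 9.95 in replicate 2. Over all protein-coding genes the medians were 5.6 in replicate 1 and 4.84 in replicate 2.

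**Figure D2:**
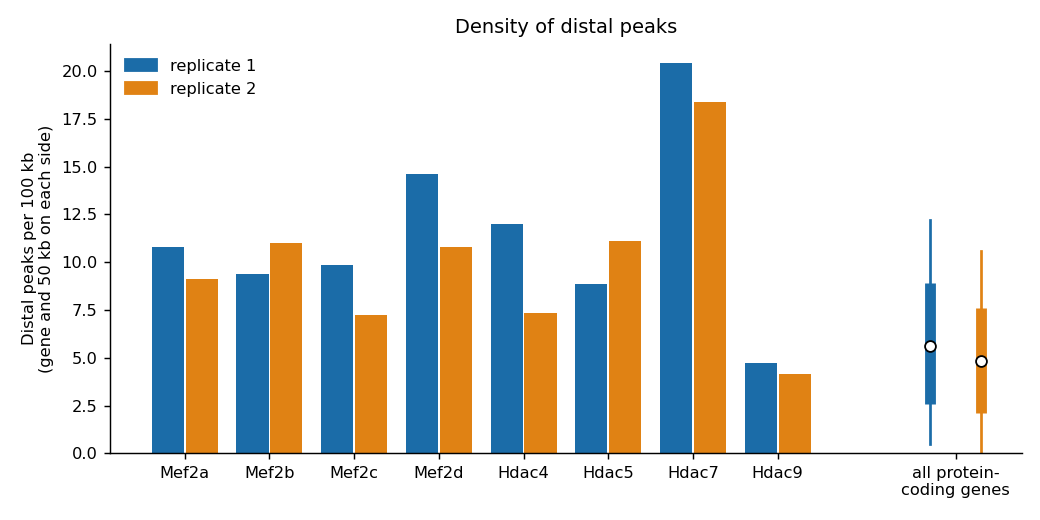
Bars give the number of distal peaks per 100 kb of gene and 50 kb flanks for each of the 8 genes in each library, and at right the white point, thick line and thin line give the median, the range from the 25th to the 75th percentile and the range from the 10th to the 90th percentile over all protein-coding genes. Hdac7 stood highest at 20.4 and 18.4, and Hdac9 was the one gene of the 8 below the median of all genes in both libraries, at 4.74 and 4.13.

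Among the MEF2 genes, Mef2d had the densest surroundings in replicate 1, with 14.6 distal peaks per 100 kb, and 10.8 in replicate 2. Of its 19 distal peaks in replicate 1, 9 lay in the gene body, and of its 14 in replicate 2, 3 did. At Mef2a 26 distal peaks were called in replicate 1 and 22 in replicate 2, and at Mef2c 26 and 19. Mef2b had 12 in replicate 1 and 14 in replicate 2, in a gene-dense region. Of its 15 distal sites in either library, 1 had a TSS of Mef2b as the nearest coding one, so most of them cannot be taken as its own.

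Hdac7 had the highest density of the 8 genes, at 20.4 per 100 kb in replicate 1 and 18.4 in replicate 2, and ranked at 99.4% of protein-coding genes in both. Hdac4 differed most between libraries, with 44 distal peaks in replicate 1 and 27 in replicate 2, of which 22 overlapped. Hdac5 had 12 in replicate 1 and 15 in replicate 2. Hdac9 had the most, 46 in replicate 1 and 40 in replicate 2, and the lowest density, in a gene of 869.5 kb. Among 230 genes of 500 kb or more, whose median was 3 per 100 kb in replicate 1 and 2.8 in replicate 2, Hdac9 ranked at 70.4% and 72.2%.

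Within Hdac9 the distal peaks were unevenly spread around the coding cluster at 388.8 kb, which starts 5 transcripts. Of its other coding clusters, each with 1 coding transcript, one lies at 298.6 kb, one at 388.2 kb and one at 479.8 kb. The 150 kb just past the 388.8 kb cluster held 8 distal peaks per 100 kb in replicate 1 and 6.67 in replicate 2. The 388.8 kb before it held 5.4 in replicate 1 and 4.63 in replicate 2. In the remaining 330.7 kb the density was 3.63 in replicate 1 and 3.02 in replicate 2, and the median peak value was 21 in replicate 1 and 19.5 in replicate 2. The median in the 150 kb segment was 43.5 in replicate 1 and 42.5 in replicate 2.

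**Figure D3:**
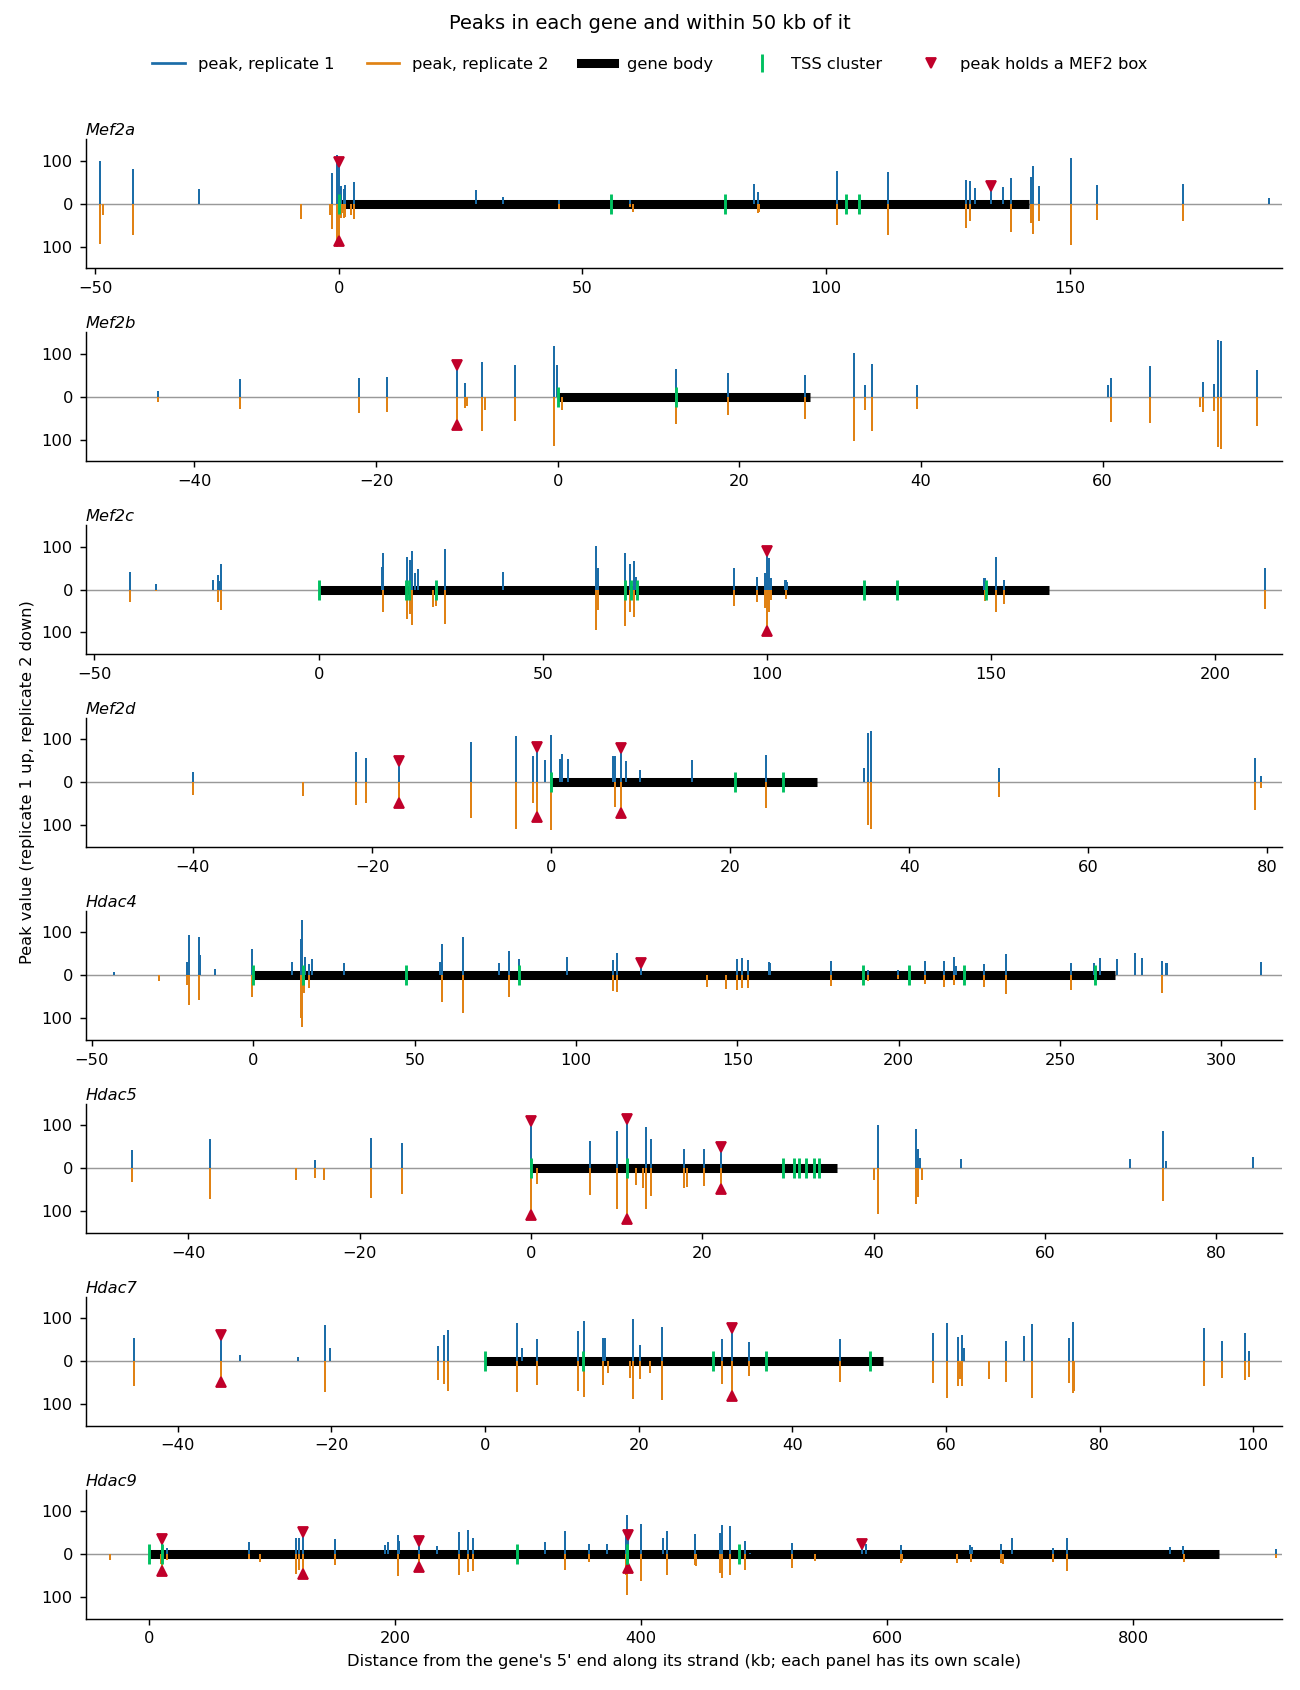
For each gene, vertical lines give every peak of the gene and its 50 kb flanks by its distance along the gene's strand from the 5' end in kb (horizontal axis, its own scale in each panel) and the authors' peak value (vertical axis), upward for replicate 1 and downward for replicate 2. The black bar is the gene body, green ticks are TSS clusters and red triangles mark peaks with a MEF2 box, which lay in both libraries at 15 places.

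The strongest distal peaks had values as high as those of promoter peaks. The peak at -3.93 kb of Mef2d had a value of 109 in both libraries, which ranked at 98.1% of all peaks in replicate 1, and it held matches to the E-box CAGCTG and to the CRE TGACGTCA. It was followed upstream of Mef2d by the peak at -8.90 kb, with 93 in replicate 1 and 82 in replicate 2. Closer to the promoter, the peak at -1.59 kb had 82 in replicate 1 and 80 in replicate 2, and holds the MEF2 box printed above. The 3 strongest shared distal peaks of Mef2d thus all lay before its start.

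Mef2c had its strongest distal peaks in introns. The highest by mean, at 61.9 kb, had values of 102 in replicate 1 and 94 in replicate 2 and held a GATA match, AGATAA. The peak at 100 kb had 90 in replicate 1 and, as the highest of that library, 97 in replicate 2, and held one of the MEF2 boxes printed above and a match to the NKX2-5 motif CACTTNA. The third, at 28.1 kb, had 95 in replicate 1 and 81 in replicate 2. In replicate 2 the hotspot over the peak at 100 kb was the widest of the locus, at 1015 bp.

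Around Mef2a the strongest distal peak lay at -49.0 kb, with 100 in replicate 1 and 93 in replicate 2, and held matches to GATA and the E-box. A second upstream peak, at -42.2 kb, had 81 in replicate 1 and 73 in replicate 2. At 142.4 kb, past the 3' end, a peak of 87 in replicate 1 and 70 in replicate 2 lay in Lysmd4, whose TSS was the nearest coding one. The strongest by mean at Mef2b was the peak at -11.0 kb, with 74 in replicate 1 and 67 in replicate 2 and a MEF2 box, and its nearest coding TSS was that of Nr2c2ap. The next at Mef2b, at 65.3 kb with 71 and 62 and at 77.0 kb with 62 and 68, had Slc25a42 as the nearest coding gene.

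Among the deacetylase genes, the shared distal peak with the highest mean over both libraries lay in an intron of the gene itself in each case. Hdac5 had a peak at 13.4 kb with 97 in replicate 1 and 94 in replicate 2, and one at 10.1 kb with 88 in replicate 1 and 95 in replicate 2. Both flank its internal promoter at 11.2 kb, and they held matches to AP-1 (TGANTCA) and T-box (AGGTGTNA) and to CRE. Hdac7 had intronic peaks at 19.3 kb, with 99 in replicate 1 and 87 in replicate 2, and at 23.1 kb, with 80 and 89 in the same order. Both lie past its open start at 12.7 kb. Peaks outside the gene bodies were at 71.2 kb of Hdac7, with 86 in both libraries, and at -37.5 kb of Hdac5, with 69 in replicate 1 and 72 in replicate 2, and their nearest coding TSSs were those of Slc48a1 and Asb16.

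By the mean of both libraries, the highest distal peak of Hdac4 was at 65.1 kb, with 89 in replicate 1 and 87 in replicate 2. Its upstream peaks at -19.8 kb and -16.9 kb differed more between libraries, with 93 and 89 in replicate 1 and 68 and 58 in replicate 2, and the first of them was the highest in replicate 1. Hdac9 had lower values, and its 3 highest distal peaks lay past the coding starts at 388.2 and 388.8 kb and before the one at 479.8 kb. They were at 400.2 kb, with 70 in replicate 1 and 62 in replicate 2, at 465.7 kb, with 69 and 55, and at 472.2 kb, with 65 and 48. Means over both libraries of these 3 peaks were 66 ± 5.66, 62 ± 9.9 and 56.5 ± 12 (SD, n = 2).

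Of 254 distal sites in either library, 162 lay in an intron of the gene, 6 in an exon, 51 upstream and 35 downstream. Hdac9 and Hdac4, the longest genes at 869.5 and 266.9 kb, held 57 and 32 of the intronic sites. The counts were not set against the length of sequence in each place, so they show no preference for introns. For 193 of the 254 sites the nearest coding TSS was that of the member. The share differed between genes, since all 27 sites of Mef2c and all 49 of Hdac4 had the gene itself as nearest, against 20 of 36 at Hdac7 and 19 of 31 at Mef2a.

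The libraries agreed in these loci about as closely as elsewhere. Of the peaks in the 8 loci, 69.5% of 282 in replicate 1 and 80.2% of 247 in replicate 2 overlapped a peak of the other library. Over all peaks the shares were 70.1% in replicate 1 and 79.8% in replicate 2. Of the distal peaks in the loci, 66.2% of 216 in replicate 1 and 81% of 179 in replicate 2 were shared, where all distal peaks had 67.7% and 79.4%. By family, 74.8% of the peaks at MEF2 genes and 65.6% at deacetylase genes were shared in replicate 1, and 85.7% and 76.1% in replicate 2.

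Across the 194 peaks paired one to one, Spearman's rho of the values was 0.942, given as a description because peaks of a library share its depth. Replicate 1 was higher in 131 pairs, replicate 2 in 48, and 15 were equal. The 88 peaks of replicate 1 without a partner had a median of 29.5, against 54 for paired ones. For the 53 unpaired peaks of replicate 2 the median was 26, against 48. All 335 sites of the 8 loci lay in a hotspot of their library. The same share over all peaks was not counted, so this does not set the loci apart.

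**Figure D4:**
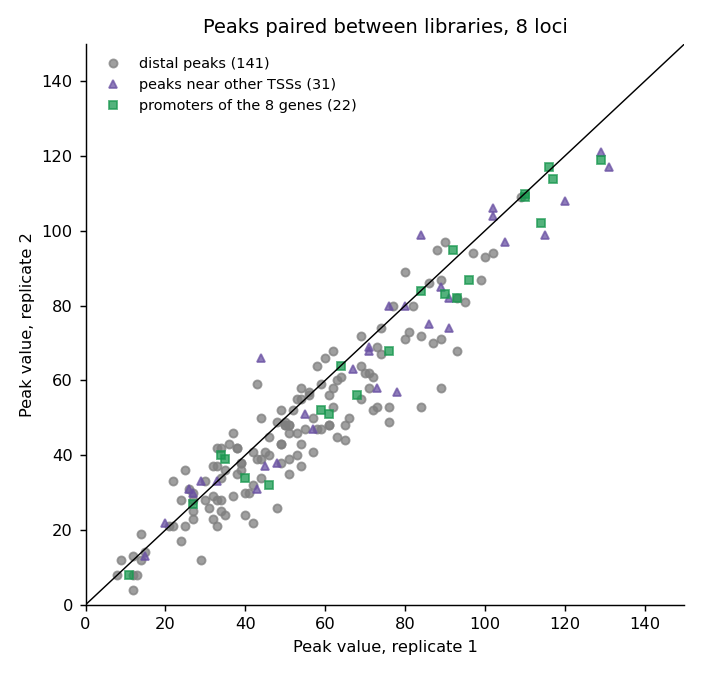
Each point is a peak of the 8 loci paired between libraries, with the authors' value in replicate 1 (horizontal axis) against replicate 2 (vertical axis) and the diagonal line at equal values. The 22 promoter peaks of the 8 genes (squares), 141 distal peaks (circles) and 31 peaks of neither class (triangles) lie along the diagonal. Of the 194 pairs, 131 lie below it. Peaks of neither class lay near TSSs of other genes or outside the promoter window of the gene's own TSS.

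A larger share of peaks held a MEF2 box in the 8 loci than over all peaks, a difference for which no test was run. A box lay in 18 of 282 peaks in replicate 1 (6.38%) and in 15 of 247 in replicate 2 (6.07%), where 1.8% of all peaks in replicate 1 and 1.86% in replicate 2 held one. Windows 1000 bp to either side of all peaks held one in 0.298% of cases in replicate 1 and 0.305% in replicate 2. Among promoter peaks of the loci the box lay in 5 of 51 in replicate 1 and 5 of 52 in replicate 2, where 0.642% and 0.64% of all promoter peaks held one. Among distal peaks it lay in 13 of 216 in replicate 1 and 10 of 179 in replicate 2, where the shares of all distal peaks were 2.17% and 2.3%.

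The family's genes differed in where the boxes lay. Mef2a and Hdac5 had them in their strongest or near-strongest promoters, Hdac9 in its weaker promoter peaks, of 35 and 39 and of 46 and 32 in replicates 1 and 2, and the rest in distal peaks. Mef2d had 3 shared distal box peaks, at -17.0, -1.59 and 7.83 kb, with 50, 82 and 80 in replicate 1 and 48, 80 and 71 in replicate 2. Hdac9 had the box in shared peaks at 124.8 kb, with 53 and 46, and at 219.1 kb, with 32 and 29, both before the coding cluster at 298.6 kb.

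The remaining box peaks lay at Hdac5 and Hdac7. At 22.2 kb in Hdac5 the values were 50 in replicate 1 and 49 in replicate 2, with GATA and E-box matches in the same peak. In an intron of Hdac7, at 32.2 kb, they were 77 in replicate 1 and 80 in replicate 2. A peak at -34.4 kb of Hdac7, with 61 in replicate 1 and 48 in replicate 2, lay inside Vdr, so its link to Hdac7 is by distance only. Hdac4 was the exception, with 1 box peak in replicate 1 and none shared.

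Counting the gene and its 50 kb flanks, 7 of the 8 genes had a box in a peak of both libraries, where 14.2% of protein-coding genes did. Genes with many peaks have more chance of a match, and among the 4442 genes with at least as many distal peaks as the member with the fewest the share was 31.4%. That member was Mef2b, with 12 distal peaks in replicate 1 and 14 in replicate 2. The set was not matched to members with more, such as Hdac9 with 46 and 40, so it is only a partial allowance. The forms of the boxes in shared peaks of the loci were counted, and 15 boxes are too few to describe the rarer forms. The boxes of all peaks come from the list of 1 library, shared or not. Of the 15 boxes, 8 read CTAAAAATAG on one strand and 5 read CTATAAATAG, which are 53.3% and 33.3%, where these forms made up 33.4% and 20% of the boxes in all peaks of replicate 1.

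Motifs of other factors were searched in the same peaks. The GATA motif AGATAA lay in 11% of the peaks of the 8 loci in replicate 1 and 12.1% in replicate 2, where all peaks had 8.47% and 7.98%. The E-box CAGCTG lay in 14.9% and 16.2%, where all peaks had 13% and 13.2%. The NKX2-5 motif lay in 8.87% of the peaks of the loci in replicate 1 and 9.72% in replicate 2, where all peaks had 7.85% and 7.84%. AP-1 matches lay in 7.8% and 6.48%, where all peaks had 7.25% and 7.17%, so their side of the background differed between libraries. The TEAD motif ACATTCCA lay in 2.13% of the peaks of the loci in replicate 1 (6 peaks) and 2.02% in replicate 2 (5 peaks), where all peaks had 1.3% and 1.42%. T-box matches lay in 2.13% and 1.21% (6 and 3 peaks), where all peaks had 1.46% and 1.5%. CRE matches lay in 1.42% and 1.21% (4 and 3 peaks), where all peaks had 0.605% and 0.67%. The ETS motif ACCGGAAGT lay in 1 peak in each library, or 0.355% and 0.405%, where all peaks had 0.244% and 0.263%. CArG matches lay in 3 peaks in each library, or 1.06% and 1.21%, where all peaks had 0.862% and 0.877%. All motifs were searched on both strands.

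**Figure D5:**
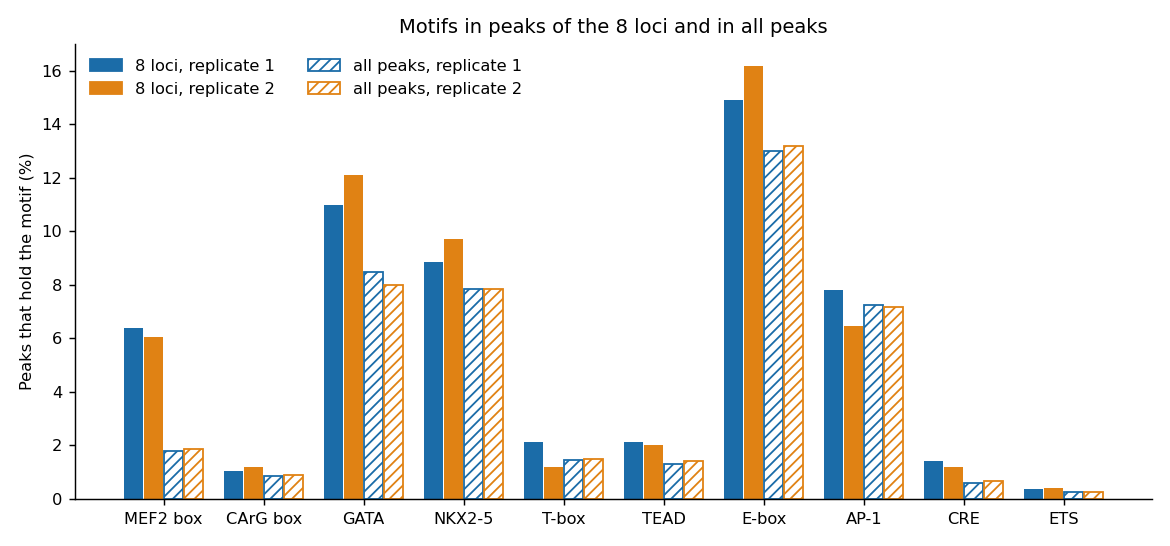
Filled bars give the share of peaks in the 8 loci that hold each motif, and hatched bars the share of all peaks, for replicates 1 and 2. The MEF2 box stood at 6.38% and 6.07% in the 8 loci, against 1.8% and 1.86% of all peaks, and GATA stood at 11% and 12.1%, against 8.47% and 7.98%.

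Genes that act on the MEF2 and deacetylase pair were nearly all open at their promoters. Of 30 signal-dependent regulators, which include the CaMK, protein kinase D and SIK kinases, calcineurin subunits and 14-3-3 proteins, all 30 had a promoter peak in both libraries. Their median value was 104 in replicate 1 and 98.5 in replicate 2. By the mean of both libraries the highest were Xpo1, the nuclear exporter, with 133 in replicate 1 and 126 in replicate 2, and the 14-3-3 gene Ywhaq, with 129 and 119. All 16 corepressor and coactivator partners had one too, with medians of 98 in replicate 1 and 96 in replicate 2. Rfxank, which encodes an ankyrin-repeat protein that binds class IIa deacetylases, led these by mean with the 117 and 114 of the peak it shares with Mef2b, followed by the arginine methyltransferase gene Carm1 at 110 and 111.

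Of 16 genes described as MEF2 targets, 15 had a promoter peak in both libraries, with medians of 93 in replicate 1 and 85 in replicate 2. Jun, an AP-1 subunit, had 130 in replicate 1 and 125 in replicate 2, and the nuclear receptor gene Nr4a1 had 104 and 99. Klhl40 had a peak in replicate 1 only, of value 56. The 14 other histone deacetylases all had a promoter peak in both libraries, led by mean by Sirt2 at 115 in replicate 1 and 120 in replicate 2, and Hdac1 at 111 and 105. The background for all of these counts is the 63.7% of protein-coding genes given above.

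A MEF2 box lay in a promoter peak of both libraries at 3 of the 8 genes, at 4 of the 16 MEF2 targets (Xirp2, Myoz2, Slc2a4 and Nr4a1) and at 4 of the 30 regulators (Ywhah, Akap13, Camk2b and Camk2a). None of the 16 partners and none of the 14 other deacetylases had one. The background for these promoter counts is the 0.542% of protein-coding genes given above, which includes genes without a promoter peak. Within the gene and 50 kb flanks the counts were 7 of 8, 10 of 16, 8 of 30, 6 of 16 and 3 of 14 in the same order. For the gene and its flanks the background was 14.2% of all protein-coding genes and 31.4% of those with many distal peaks, as given above. The flank counts of the regulators, the partners and the other deacetylases lay near that range.

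The series held 164657 peaks and 152488 hotspots in replicate 1 and 144708 peaks and 132624 hotspots in replicate 2, on chromosomes 1 to 19, X and Y. The labelled tissue was checked by promoter peaks of marker genes, which 63.7% of protein-coding genes had in both libraries. All 6 cardiomyocyte markers had one in both libraries, with median values of 106.5 in replicate 1 and 101 in replicate 2. So did all 4 endothelial markers, with a median of 54.5 in each library, and all 4 fibroblast markers, with 54 and 52. Of 3 smooth muscle markers 2 had one in both libraries, and the medians over those with a peak were 76 and 70. None of the 3 macrophage and leukocyte, 3 erythroid and 3 hepatocyte markers had a promoter peak. Of 4 skeletal muscle markers, Ckm and Myog had one and Myod1 and Myf5 had none, and of 3 neuron markers Rbfox3 and Snap25 had one in both libraries. Which of these cell types gave the peaks of the 8 genes was not tested.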

How the data were processed

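DNase-seq libraries of newborn heart (n = 2, 1 group) were used as deposited. Each library was called for peaks and hotspots on its own filtered mm10 alignments, as its deposited text file states. The caller, the aligner and their thresholds are not given in any source used here, and a weak site can enter or leave a list at the threshold. The deposited peak lists give 1 signal value per 150 bp peak, with no stated normalization. The deposited hotspot lists give a -log10 q-value, and their score column was not used. Read totals were not analysed here, so depth is unknown and no interval was computed.

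The members, gene lists, motifs and summaries were chosen with earlier results of these data known. Genes and TSSs came from GENCODE vM21, and sequences from GRCm38.p6, which has the primary sequence of mm10: all 21 chromosomes fitted its lengths and 0 peaks ran past an end. TSSs of a gene within 500 bp of the next formed a cluster. A peak centre within 500 bp of a TSS made a promoter peak, one more than 1000 bp from every TSS a distal peak, and an overlap of 1 bp a shared peak. Named were all 8 genes, their TSS clusters with a peak, the 3 highest shared distal peaks and box peaks of each, the widest hotspots, and of each list the 2 highest genes by the mean of both libraries and those without a promoter peak. Genes named for a box in their promoter peaks were added after their values were seen. Scripts used Python 3.11.15, pandas 2.3.3, numpy 2.4.6, scipy 1.17.1, pysam 0.24.0, samtools 1.23.1 and matplotlib 3.10.9 and were tested on simulated data. Alternatives changed the windows, overlap, flanks, peak thresholds, TSS set, motif and libraries.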

Additional observations from a re-analysis of the deposited data

How the results depend on the processing

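Of 44 alternatives over 6 results, 41 left the result within its tolerance and 3 moved it. Tolerances were a factor of 1.5 for a count and 1 SD over both libraries for the shared percentage (7.54) and promoter value (4.24). The SD of 7.54 follows largely from list length, since 196 of 282 peaks were shared in replicate 1 and 198 of 247 in replicate 2. That tolerance is wide: the 81.9% with only peaks at or above the library median counted as unchanged from 74.8%. With only peaks at or above the library median, distal peaks per member had a median of 13.8, against 23.2 as reported. With 1 mismatch allowed in the MEF2 box, 24 shared locus peaks held one, against 15. Without TSSs that lie within 500 bp of a TSS of another gene, a choice made after seeing the data, the median of the highest promoter value was 101, against 109. Leaving out either library gave 8 genes with a promoter peak each time, 20 to 21 TSS clusters against 18, 20.5 to 26 distal peaks per member, a median promoter value of 106 to 112 and 15 to 18 box peaks. A flank of 100 kb gave 32.2 distal peaks per member. The count of 8 genes with a promoter peak held in every alternative that was run for it. The wider windows and the use of a single library loosen the rule, so they could not lower that count or the count of TSS clusters. No paired analysis was possible because the study has 1 group. Depth limits every absence: a site with no listed peak is not thereby shown to be closed. Libraries with the same donor label cannot show the spread between animals.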

Other observations

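Distal peaks near Tnnt2, a cardiomyocyte marker used only to check the tissue, numbered 64 in replicate 1 and 15 in replicate 2, although its promoter values of 115 and 102 were close. Among the 8 genes the widest such gap was at Hdac4, with 44 in replicate 1 and 27 in replicate 2. Mef2b and Hdac5 went the other way, with 12 and 14 and with 12 and 15 in replicates 1 and 2, although replicate 2 has fewer peaks in all. The cause was not tested.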
